A study of Penicillium oxalicum with 12 samples.

Results

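The transcriptome of *Penicillium oxalicum* wild type (WT, strain 114-2) was compared between cellulose medium and glucose medium, using 6 of the 12 libraries of an RNA-seq series that also holds the *Podot1* deletion strain Δ*Podot1*. The members were chosen by their titles: 3 libraries of WT in cellulose medium (1% microcrystalline cellulose plus 1% wheat bran) and 3 libraries of WT in glucose medium (2% glucose). All 6 cultures were precultured in glucose medium at 30°C, transferred, and harvested after a further 24 h, and neither group carried a genetic change. The series lists 9909 genes, of which 9787 had a value in at least 1 WT library and 8929 in all 6. Cellulose and wheat bran were given together, so their effects cannot be told apart. The RNA came from whole mycelia, so fewer cells of a kind and fewer transcripts per cell cannot be told apart either.

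*P. oxalicum* is a filamentous fungus that feeds on plant litter by secreting enzymes that cut polysaccharides into sugars small enough to import. Cellobiohydrolases release cellobiose from the ends of cellulose chains, endoglucanases cut inside the chains, and β-glucosidases split cellobiose into glucose. Glucose represses the genes of these enzymes in such fungi, and they are induced when only the polymer is at hand. Wheat bran brings xylan, starch and protein besides cellulose, and xylanases, amylases and proteases act on these.

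Each library held 4607764 to 5377359 estimated counts in cellulose medium and 4829546 to 7081689 in glucose medium. Levels are given as FPKM, fragments scaled to transcript length and to the mapped fragments of the library, and a gene that is not listed in a table was taken as 0. *Podot1* (PDE_07484), the gene deleted in the other strain, had 36.4, 28.8 and 28.2 FPKM in cellulose medium, against 31.7, 25.8 and 29.0 FPKM in glucose medium, so the 6 libraries carried the gene as their labels say. Its log2 fold change was -0.10 (standard error 0.22, edgeR adjusted p = 0.735), with a sign that turned when libraries were scaled by size alone. On log2(FPKM + 1) over 9025 genes, the Pearson correlation was 0.901 to 0.959 among the cellulose libraries, 0.942 to 0.990 among the glucose libraries and 0.547 to 0.729 between the media. The samples of a group are described as biological replicates, and no pair of libraries was alike within sampling noise.

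The response was large in both directions. Of the 8596 genes tested, 3532 were called (41.1%), with 1840 higher (21.4%) and 1692 lower (19.7%) in cellulose medium than in glucose medium. To be called, a gene needed an adjusted p under 0.05 (edgeR's quasi-likelihood test, Benjamini-Hochberg) and a change of at least 2-fold, and 4350 genes passed the adjusted p alone. Irrespective of the test, the FPKM of the libraries did not overlap between the media in 5077 of the genes tested (59.1%), with cellulose above in 2878 (33.5%) and below in 2199 (25.6%). The higher and lower calls were close in number, but their sizes were not alike. At 4-fold or more there were 1022 higher and 651 lower genes, at 16-fold or more 413 higher and 107 lower, and at 64-fold or more 150 higher and 30 lower. These counts depend on how low values are treated, since limma on log2(FPKM + 10) gave 84 higher and 36 lower genes at 16-fold and 12 higher and 10 lower at 64-fold, and with 1 added 75 higher and 21 lower at 64-fold. The median log2 fold change was 2.19 among the genes called higher and -1.75 among those called lower. Over all genes tested it was -0.02, with a 5th percentile of -2.41 and a 95th percentile of 3.89. Scaling by library size alone, without the TMM factors used here, moved the median of all genes to 0.19 and gave 2107 higher and 1354 lower calls.

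**Figure D1:**
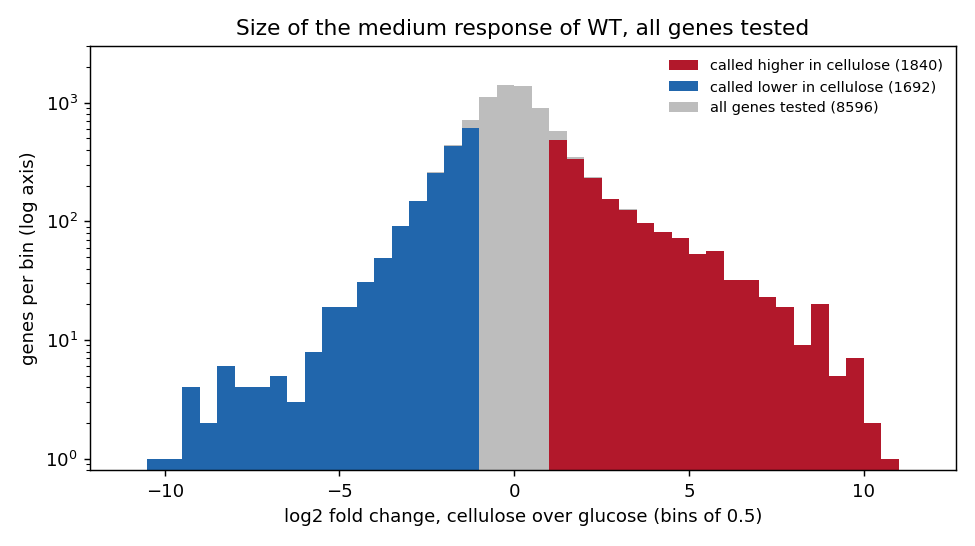
Number of genes (log axis) in bins of 0.5 of the log2 fold change of WT, cellulose over glucose, with all 8596 genes tested in grey and the called genes drawn in front in red (1840 higher in cellulose medium) and blue (1692 lower). The right side is the longer one, with 150 genes at 64-fold or more against 30 on the left.

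Genes with a high mean over both media were called more often than genes of middle level. A gene high in a single medium enters an upper class through that medium, so these shares partly follow from the way the classes were made. Of the 86 genes with a mean of 1000 FPKM or more over the 6 libraries, 20 were called higher and 37 lower (66.3%), and 22 changed at least 16-fold. Of the 1362 genes between 100 and 1000 FPKM, 293 were higher and 426 lower (52.8%). The 5689 genes between 10 and 100 FPKM had 1086 higher and 1013 lower calls (36.9%), and the 1459 genes under 10 FPKM had 441 higher and 216 lower calls (45.0%). The median transcript length was 1370.5 bases for the genes called higher, 1395.5 for those called lower and 1445 for all genes tested. More genes varied widely among replicates in cellulose medium, where 276 genes spanned at least 4-fold among the 3 libraries on the FPKM + 1 scale, against 144 genes in glucose medium. The typical spread was alike, with a median SD of log2(FPKM + 1) of 0.31 in cellulose medium and 0.29 in glucose medium.

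**Figure D2:**
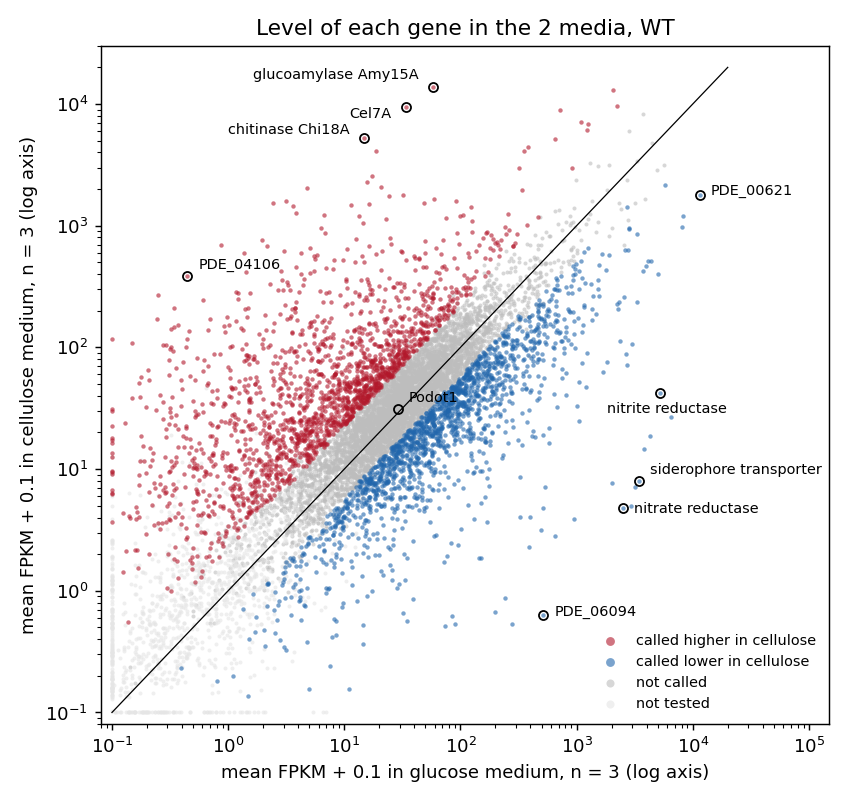
Mean FPKM + 0.1 of each gene in cellulose medium (vertical, n = 3, log axis) against glucose medium (horizontal, n = 3, log axis), with called genes in colour and a line of equal level. The glucoamylase, Cel7A and chitinase genes lay among the most abundant genes in cellulose medium and under 100 FPKM in glucose medium, and nitrite reductase, nitrate reductase and the siderophore transporter lay far below the line.

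The most abundant transcript in cellulose medium was that of the glucoamylase Amy15A (PDE_09417), which releases glucose from the ends of starch chains. Its level was 14780.1, 13575 and 13285 FPKM in cellulose medium, against 87.0, 38.3 and 48.5 FPKM in glucose medium. Every cellulose library lay far above every glucose library (log2 fold change 7.73, standard error 0.68, edgeR adjusted p = 6.81e-05), and the gene ranked 1 in cellulose medium and 2345 in glucose medium. The cellobiohydrolase gene *cel7A* (PDE_07945) ranked 4 and 3596. It had 12060.3, 7681 and 8612 FPKM in cellulose medium, against 30.2, 33.7 and 37.7 FPKM in glucose medium (log2 fold change 7.90, standard error 0.62, edgeR adjusted p = 3.98e-05). These were the only members of the cellulose top 10 with a function in the sources used here.

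The other 8 were abundant in both media, and their ranks in glucose medium lay between 17 and 157. PDE_09166 had 10916, 14818 and 13472 FPKM in cellulose medium, against 2011, 1966 and 2193 FPKM in glucose medium (log2 fold change 2.44, edgeR adjusted p = 0.000889). PDE_06800 had 8818, 10309 and 9986 FPKM in cellulose medium, against 3521, 1649 and 1469.6 FPKM in glucose medium (log2 fold change 1.96, edgeR adjusted p = 0.00753). PDE_09832 had 5168, 11819 and 9915 FPKM in cellulose medium, against 448, 826 and 875 FPKM in glucose medium (log2 fold change 3.38, edgeR adjusted p = 0.00107). In these 3 genes the lowest cellulose library was above the highest glucose library. The neighbouring locus tags PDE_05881 and PDE_05882 rose with log2 fold changes of 2.11 and 2.49, and their libraries did not overlap between the media. PDE_07202 rose as well (log2 fold change 2.25, edgeR adjusted p = 0.0135), but its cellulose libraries were unequal, at 2807, 4341 and 13408 FPKM, against 1769.9, 960.5 and 1015 FPKM in glucose medium. Without glucose replicate 2 its call was lost (edgeR adjusted p = 0.0511). Of the 10 genes, 8 were called higher, beside 21.4% of all genes tested, but they were picked by their level in cellulose medium. The exceptions were PDE_00509 (log2 fold change 0.97, edgeR adjusted p = 0.138) and PDE_05655 (0.88, edgeR adjusted p = 0.109), and the libraries of PDE_05655 overlapped between the media. Without cellulose replicate 1 PDE_05655 was called higher (log2 fold change 1.18, edgeR adjusted p = 0.0399).

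The most abundant transcript in glucose medium was PDE_00621, with 2264, 1908 and 1236 FPKM in cellulose medium, against 6924, 14143 and 13229 FPKM in glucose medium. It fell (log2 fold change -2.91, standard error 0.54, edgeR adjusted p = 0.00273) and still ranked 34 in cellulose medium. PDE_07106 had 718, 1206 and 1699 FPKM in cellulose medium, against 6219, 8815 and 9484 FPKM in glucose medium (log2 fold change -3.01, edgeR adjusted p = 0.00111). The nitric oxide dioxygenase gene PDE_01345, whose product detoxifies nitric oxide, had 1852, 648 and 411 FPKM in cellulose medium, against 6928, 9033 and 8477 FPKM in glucose medium (log2 fold change -3.27, edgeR adjusted p = 0.00534). These 3 remained among the 100 most abundant genes in cellulose medium.

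A pair of genes in the glucose top 10 fell far more steeply than the rest, but stayed expressed in cellulose medium. PDE_06097 had 14.8, 10.4 and 55.0 FPKM in cellulose medium, against 7314, 6227 and 5797 FPKM in glucose medium, and it ranked 4768 in cellulose medium and 4 in glucose medium (log2 fold change -8.13, standard error 0.75, edgeR adjusted p = 8.46e-05). The nitrite reductase gene PDE_00370, which makes ammonium from nitrite, had 48.5, 35.8 and 40.9 FPKM in cellulose medium, against 6334, 4588 and 4797 FPKM in glucose medium (log2 fold change -7.17, standard error 0.61, edgeR adjusted p = 5.83e-05). Of the 10 genes, 7 were called lower, beside 19.7% of all genes tested, but they were picked by their level in glucose medium. PDE_01252 (log2 fold change -1.65) and PDE_02095 (-3.89) were the remaining called ones, and PDE_02596, PDE_08706 and PDE_02650 missed the test with log2 fold changes of -1.09, -0.95 and -0.07, the last with a sign that turned under other scalings. The libraries of PDE_08706 and PDE_02650 overlapped between the media. Without glucose replicate 1 PDE_02596 was called lower (log2 fold change -1.31, edgeR adjusted p = 0.0317), as it was by DESeq2 (-1.08, adjusted p = 0.00675).

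**Figure D3:**
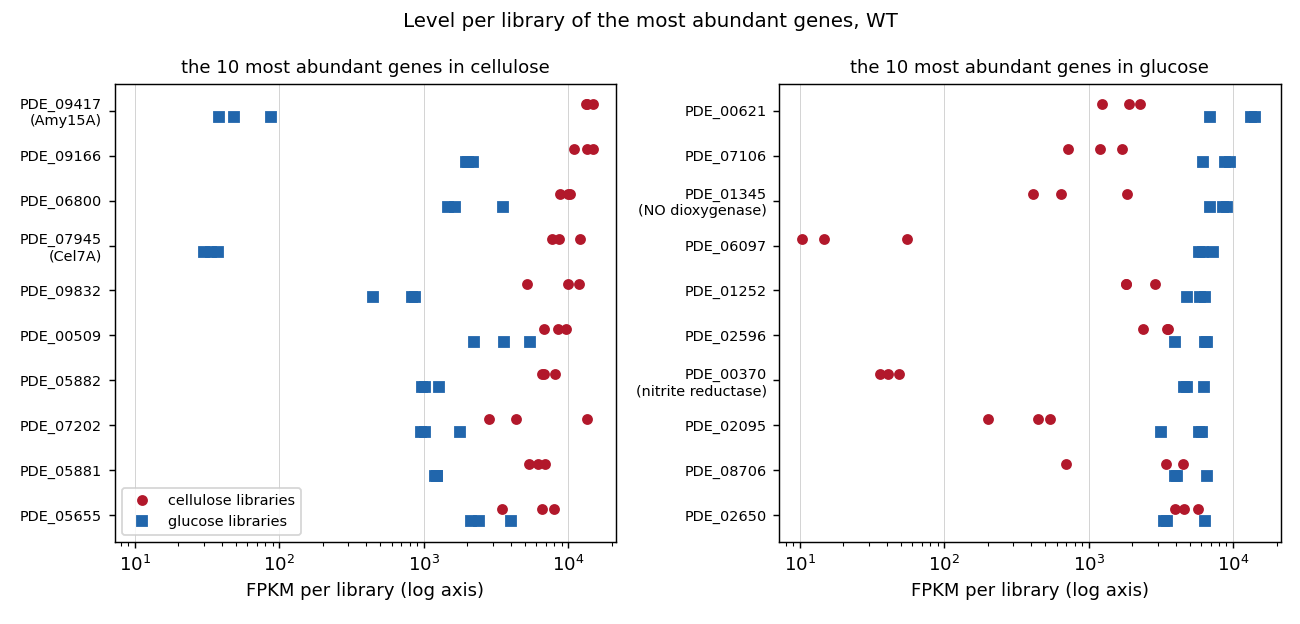
FPKM per library (log axis) of the 10 most abundant genes in cellulose medium (left) and in glucose medium (right), with cellulose libraries as circles above glucose libraries as squares. Amy15A and Cel7A on the left and PDE_06097 and nitrite reductase on the right show the widest gaps. PDE_05655 on the left and PDE_08706 and PDE_02650 on the right have overlapping libraries.

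No gene was in the top 10 of both media. The top 50 lists shared 15 genes and the top 100 lists shared 37. Among the top 100 of cellulose medium 53 genes were called higher, beside 21.4% of all genes tested. Among the top 100 of glucose medium 66 were called lower, beside 19.7% of all genes tested. The cellulose top 10 held 10.4%, 12.1% and 12.7% of the transcript pool in the cellulose libraries, against 2.47%, 1.63% and 1.86% in the glucose libraries. The glucose top 10 held 2.60%, 2.58% and 1.64% in the cellulose libraries, against 7.44%, 9.16% and 9.08% in the glucose libraries. The transcript pool is the sum of FPKM over all genes of a library set to 100%, so it counts transcripts per length. The genes were chosen by these levels, which favours calls in that direction, so the counts and shares are descriptions without a test.

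A large part of the pool went to different genes in cellulose medium than in glucose medium. Between the mean pools of the media, 45.9% of the transcripts would have to change gene for one to match the other (the summed absolute differences of the shares, divided by 2). For the 9 pairs of a cellulose and a glucose library this share was 38.7% to 56.3%, with a median of 47.9%. It was 16.3%, 17.5% and 24.9% between pairs of cellulose libraries. Between pairs of glucose libraries it was 4.76% for replicates 2 and 3 and 22.1% and 22.7% for the pairs with replicate 1. Every pair between media differed by more than every pair within a medium. The smallest between-media value belonged to cellulose replicate 1 and glucose replicate 1, and the largest to cellulose replicate 3 and glucose replicate 2.

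The genes called higher held 36.3%, 41.0% and 47.1% of the pool in the cellulose libraries, against 7.18%, 4.74% and 4.92% in the glucose libraries. The genes called lower held 12.8%, 12.1% and 9.09% in the cellulose libraries, against 42.1%, 54.3% and 54.1% in the glucose libraries. These shares follow from the calls and show only how much of the pool the called genes make up. Few genes carried much of the exchange. Of the gained share, 50% came from 93 of the 5616 genes that gained, and 50% of the lost share came from 91 of the 4171 genes that lost. The 10 largest gains summed to 10.02 percentage points, or 21.8% of all gain, and the 10 largest losses summed to -7.31 points, or 15.9% of all loss. The 5 largest gains were those of Amy15A (1.81 points), PDE_09166 (1.44), *cel7A* (1.23), PDE_09832 (1.08) and PDE_06800 (0.98). The 5 largest losses were those of PDE_00621 (-1.27 points), the nitric oxide dioxygenase gene PDE_01345 (-0.94), PDE_07106 (-0.92), PDE_06097 (-0.84) and nitrite reductase (-0.68).

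**Figure D4:**
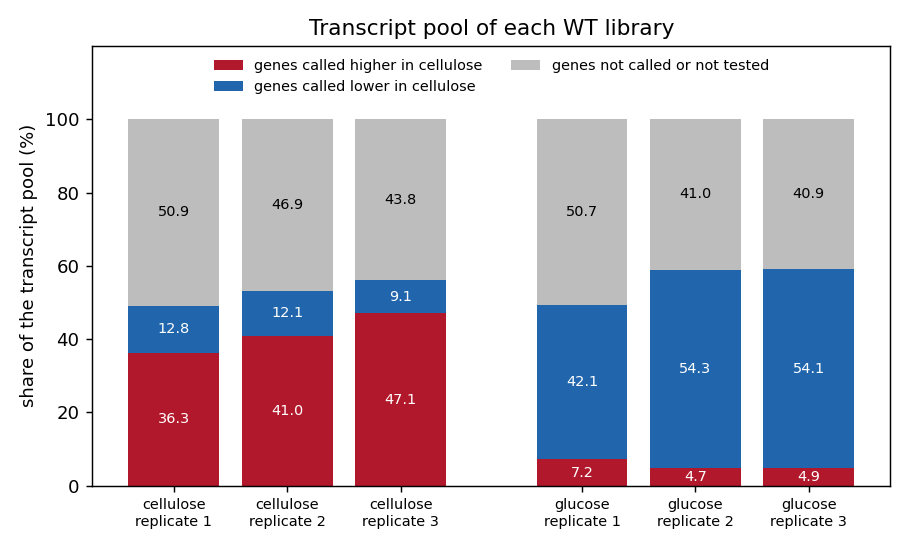
Share of the transcript pool (%) of each WT library held by genes called higher in cellulose medium (red), genes called lower (blue) and all other genes (grey), with cellulose libraries left of glucose libraries. Genes called higher hold 36.3% to 47.1% of the cellulose pools and 4.74% to 7.18% of the glucose pools, and glucose replicate 1 has the lowest share of genes called lower among the glucose libraries.

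The most abundant genes took a larger part of the pool in cellulose medium, in a comparison too small to pass a test. Each library's own 10 most abundant genes held 12.2 ± 1.03% of the pool in cellulose medium and 9.02 ± 0.82% in glucose medium (SD, n = 3 each). The groups did not overlap, and the exact permutation test, two-sided, gave p = 0.1, below which a design of 3 against 3 cannot go. The 100 most abundant genes held 32.8 ± 1.38% in cellulose medium and 33.2 ± 1.04% in glucose medium, a difference of -0.32 points (exact permutation p = 0.8). To make up 50% of the pool took 386, 394 and 376 genes in the cellulose libraries, against 369, 285 and 276 in the glucose libraries (exact permutation p = 0.1). Genes at 1000 FPKM or more numbered 83, 80 and 71 in cellulose medium, against 100, 104 and 111 in glucose medium (exact permutation p = 0.1). The share of the single most abundant gene, 1.88 ± 0.10% in cellulose medium and 1.53 ± 0.52% in glucose medium, gave an exact permutation p of 0.3. With 5 such quantities compared, no Benjamini-Hochberg adjusted p was below 0.167.

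Silent genes were turned on far more often than active genes were turned off. Switched on means under 1 FPKM in each glucose library and at least 10 FPKM in each cellulose library, and switched off means the reverse. By this rule 83 genes were switched on and 6 were switched off. The genes were chosen by these values, so no test is given for them. The switched-on genes were of modest level, with a median of 38.6 FPKM in cellulose medium, a highest mean of 383 FPKM, and 16 genes at 100 FPKM or more. Together they made up 0.456%, 0.759% and 0.788% of the pool in the cellulose libraries, against 0.00371%, 0.00315% and 0.00293% in the glucose libraries. Of the 83 genes, 7 had no count in any glucose library and 7 had a function in the sources used here.

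The most abundant switched-on gene was PDE_04106, annotated as cystathionine γ-synthase, an enzyme of methionine synthesis, with 237, 438 and 475 FPKM in cellulose medium, against 0.62, 0.14 and 0.28 FPKM in glucose medium. A prenyltransferase of cyclic dipeptides (PDE_00797), an enzyme type of alkaloid synthesis, had 76.6, 182 and 90.8 FPKM in cellulose medium, against 0.14, 0.3 and 0.58 FPKM in glucose medium. A salicylate hydroxylase (PDE_09911) had 83.5, 117 and 44.9 FPKM in cellulose medium, against 0.3, 0.42 and 0.61 FPKM in glucose medium. All glucose libraries of these 3 genes were below 1 FPKM. The switched-on genes often lay side by side, and 33 of the 83 had a neighbouring locus tag in the set. From PDE_00792 to PDE_00811 14 of 20 tags were switched on, from PDE_09229 to PDE_09241 7 of 13, and from PDE_09999 to PDE_10010 8 of 12, and every gene of these runs was called higher. The runs were picked out after their values were seen.

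The largest called increases were read from very few glucose counts. PDE_09232 (761 counts over the 3 cellulose libraries), PDE_00801 (334), PDE_01073 (295) and PDE_08286 (274) had no count in any glucose library. Against a floor of 3 counts over the glucose group they were at least 314-fold, 138-fold, 122-fold and 113.03-fold higher in cellulose medium. PDE_01065 had 174, 314 and 314 FPKM in cellulose medium, against 0.19, 0 and 0.25 FPKM in glucose medium. Its 4591 counts against 3 correspond, after allowing for library sizes, to a ratio of 1894 (95% exact interval 648 to 9187). PDE_10002 (1570 counts against 1) had a ratio of 1943 (348 to 76791), and PDE_05194 (2989 against 3) had a ratio of 1233 (422 to 5982). These intervals cover counting error only. The remaining 3 of the 10 were PDE_04106 (log2 fold change 9.94), PDE_00794 (9.75) and the scytalone dehydratase gene PDE_09236 (9.66, edgeR adjusted p = 3.42e-05). Scytalone dehydratase is an enzyme of the dihydroxynaphthalene melanin pathway. It had 298, 675 and 1109.7 FPKM in cellulose medium, against 1.65, 0.23 and 0.45 FPKM in glucose medium.

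The switched-off genes were PDE_09880, PDE_05937, PDE_01465, PDE_03588, PDE_06098 and PDE_04886, and they made up at most 0.0764% of any glucose pool. PDE_09880, annotated as a drug efflux transporter of the major facilitator family, was the most abundant of them, with 0.86, 0.42 and 0.44 FPKM in cellulose medium, against 143, 269 and 178 FPKM in glucose medium. Of the 10 largest called decreases only PDE_09880 met the rule, since the others kept at least 1 FPKM in some cellulose library.

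The 10 largest called decreases held 6 genes annotated as transporters. The share of transporters over all genes is not known here, since only 657 genes had a function. PDE_06094, without a function in the sources used here, had 0.12, 0.32 and 1.14 FPKM in cellulose medium, against 434, 539.7 and 580.1 FPKM in glucose medium, the largest called decrease (log2 fold change -10.17, standard error 0.87, edgeR adjusted p = 5.96e-05). Next to it by locus tag, PDE_06095, annotated as a sulfate anion transporter, had a log2 fold change of -9.52, and PDE_06096, annotated as a siderophore-iron transporter, one of -9.03. Siderophores are small molecules that fungi use to take up iron. PDE_06096 had 2.70, 2.62 and 18.2 FPKM in cellulose medium, against 2715, 3957 and 3645 FPKM in glucose medium (standard error 1.04, edgeR adjusted p = 0.000257). All 5 genes from PDE_06094 to PDE_06098 were called lower.

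The copper transporter genes PDE_05328 and PDE_08756 fell by amounts of the same order. PDE_05328 had 3.46, 3.15 and 8.08 FPKM in cellulose medium, against 1819, 3553 and 3404 FPKM in glucose medium (log2 fold change -9.47, edgeR adjusted p = 3.1e-05). PDE_08756 had 2.99, 1.60 and 18.3 FPKM in cellulose medium, against 2001, 2001 and 2024 FPKM in glucose medium (log2 fold change -8.27, edgeR adjusted p = 0.000205). The gene of an iron or manganese superoxide dismutase (PDE_00326), an enzyme that removes superoxide, had 6.16, 5.28 and 32.4 FPKM in cellulose medium, against 4756, 3543 and 3194 FPKM in glucose medium (log2 fold change -8.25, edgeR adjusted p = 0.000169). In most of these genes cellulose replicate 3 had the highest of the cellulose values, and it was still far below every glucose library. PDE_05901 (log2 fold change -9.06) and PDE_09880 (-8.65) were also among the 10 largest decreases.

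Genes of nitrate and ammonium use fell with them. The nitrate reductase gene PDE_00369 had 2.76, 1.06 and 10.3 FPKM in cellulose medium, against 2936, 2158 and 2390.3 FPKM in glucose medium (log2 fold change -9.26, standard error 1.02, edgeR adjusted p = 0.0002). The nitrate transporter gene PDE_00371, next to it and to nitrite reductase, had 1.92, 3.87 and 5.52 FPKM in cellulose medium, against 528, 1142 and 1168 FPKM in glucose medium (log2 fold change -8.24, edgeR adjusted p = 4.46e-05). The ammonium transporter gene PDE_00679 had 0.73, 0.42 and 1.19 FPKM in cellulose medium, against 105, 332 and 283 FPKM in glucose medium (log2 fold change -8.52, edgeR adjusted p = 4.8e-05). The nitrogen list held 10 genes, of which 8 were called lower, 1 higher and 1 was not called, with a median log2 fold change of -4.96 beside -0.02 over all genes tested. Its members PDE_00369 and PDE_00679 are also among the 10 largest decreases, and nitrite reductase is among the largest pool losses. The list therefore partly repeats those observations. The genes that make glutamate and glutamine from ammonium were among those that fell, with the glutamate dehydrogenase gene *gdhA* (PDE_06117) at -4.66 and a glutamine synthetase gene (PDE_08346) at -3.10. The glutamate dehydrogenase gene PDE_06171 rose, with 131, 245 and 147 FPKM in cellulose medium, against 16.2, 24.2 and 28.6 FPKM in glucose medium (log2 fold change 2.67, edgeR adjusted p = 0.000768).

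Functions were known for 657 genes, and part of these were grouped in 18 lists of 3 to 18 members. Most of these genes are annotated because they differed between the strains in libraries that include the WT ones, so the direction of a list is not independent evidence. Over all genes tested 21.4% were called higher and 19.7% lower, and these shares are given beside the counts of the lists. Annotated genes were called more often, 442 of the 657 in either direction, beside 41.1% of all genes tested. The share over all genes is therefore a low baseline for these lists. The cellulose list had 13 genes, of which 11 were called higher and 2 lower (median log2 fold change 6.77). The lytic polysaccharide monooxygenase gene *cel61A* (PDE_05633), whose product breaks crystalline cellulose by oxidation, had 1094, 1943 and 1722 FPKM in cellulose medium, against 4.04, 1.78 and 3.28 FPKM in glucose medium (log2 fold change 8.82, standard error 0.47, edgeR adjusted p = 1.31e-05). The second cellobiohydrolase gene *cel6A* (PDE_07124) had 2185, 2406 and 2306 FPKM in cellulose medium, against 8.88, 16.6 and 21.6 FPKM in glucose medium (log2 fold change 6.93, edgeR adjusted p = 4.74e-05). Both sets of cellulose values were tight beside the gap between the media. The expansin gene PDE_02102, of a protein family that loosens walls, rose with a log2 fold change of 7.03. The members that fell were a pair of putative endo-β-1,4-glucanase genes, PDE_03711 (-2.04) and PDE_09014 (-1.82), which had 67.2, 30.3 and 21.97 FPKM and 57.5, 36.1 and 28.0 FPKM in cellulose medium, against 155, 122 and 154 FPKM and 84.2, 153 and 127 FPKM in glucose medium. The whole list held 2.61%, 2.31% and 2.30% of the pool in the cellulose libraries, against 0.0424%, 0.0499% and 0.0542% in the glucose libraries.

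The starch list rose in most of its members. Of 7 genes, 5 were called higher and 2 were not called (median log2 fold change 5.53), and the list held 2.59%, 2.41% and 3.17% of the pool in the cellulose libraries, against 0.0916%, 0.0837% and 0.0914% in the glucose libraries. The α-amylase gene *amy13A* (PDE_01201), whose product cuts inside starch chains, had 809, 1558 and 1456 FPKM in cellulose medium, against 3.09, 3.15 and 4.93 FPKM in glucose medium (log2 fold change 8.16, edgeR adjusted p = 2.08e-05). PDE_01354, annotated with starch-binding and chitin-binding domains, had 2943, 1624 and 7782 FPKM in cellulose medium, against 29.3, 13.02 and 13.4 FPKM in glucose medium (log2 fold change 7.62, edgeR adjusted p = 0.000156). The putative α-amylase gene PDE_04684 was abundant in both media, with 829, 1031 and 802 FPKM in cellulose medium, against 540.1, 532 and 567 FPKM in glucose medium (log2 fold change 0.48, edgeR adjusted p = 0.216).

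The hemicellulose and pectin list was mixed, with 7 of 12 genes called higher, 3 lower and 2 not called (median log2 fold change 3.15). Over all genes tested 21.4% were higher and 19.7% lower. The xylanase gene *xyn10A* (PDE_08094) had 97.2, 70.6 and 285 FPKM in cellulose medium, against 0.83, 0.19 and 1.42 FPKM in glucose medium (log2 fold change 7.27, edgeR adjusted p = 0.000189). An acetylxylan esterase gene (PDE_09278), whose product removes acetyl groups from xylan, rose with a log2 fold change of 5.90. An arabinofuranosidase gene (PDE_06067, -2.06), a putative arabinanase gene (PDE_04488, -2.27) and a putative polygalacturonase gene (PDE_03218, -1.999) fell.

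Sugar transporters went both ways. Of 14 genes, 5 were called higher, 5 lower and 4 were not called, beside 21.4% higher and 19.7% lower over all genes tested. The cellodextrin transporter gene *cdtC* (PDE_00607), whose product imports short cellulose fragments, had 1108, 1000.4 and 1478 FPKM in cellulose medium, against 6.42, 17.1 and 16.6 FPKM in glucose medium (log2 fold change 6.21, edgeR adjusted p = 8.97e-05). The most abundant transporter of the list was the sugar symporter PDE_09377, with 4982, 5375 and 5168 FPKM in cellulose medium, against 477, 677 and 819 FPKM in glucose medium (log2 fold change 2.73, edgeR adjusted p = 0.00188). In the other direction, the sugar symporter PDE_03140 had 3.03, 2.59 and 3.52 FPKM in cellulose medium, against 225, 635 and 618 FPKM in glucose medium (log2 fold change -7.60, edgeR adjusted p = 4.32e-05).

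Genes of the cell wall were called in both directions. Of 14 genes for chitin and wall glucan, 3 were called higher, 4 lower and 7 were not called, beside 21.4% higher and 19.7% lower over all genes tested, and the median log2 fold change was -0.66 where the mean was 0.45. The highest value was that of the chitinase gene *chi18A* (PDE_08122), with 2348, 3591 and 9915 FPKM in cellulose medium, against 20.4, 10.8 and 12.7 FPKM in glucose medium (log2 fold change 8.29, edgeR adjusted p = 9.38e-05). Its cellulose libraries were unequal, and all lay far above the glucose libraries. The endo-β-1,3-glucanase gene *eglC* (PDE_03112) fell, with 387, 119 and 56.7 FPKM in cellulose medium, against 788, 1959.6 and 1669 FPKM in glucose medium (log2 fold change -3.20, edgeR adjusted p = 0.0105).

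The respiratory chain, the citric acid cycle and glycolysis held mostly genes that fell. In the respiratory chain list all 18 genes were called lower, with log2 fold changes from -3.88 to -2.25 and a median of -2.93. The gene of ATP synthase subunit c (PDE_07836) had 737, 541 and 249 FPKM in cellulose medium, against 3025, 4869.8 and 5326 FPKM in glucose medium (log2 fold change -3.35, edgeR adjusted p = 0.00134). The list made up 0.361%, 0.359% and 0.180% of the pool in the cellulose libraries, against 1.23%, 2.35% and 2.46% in the glucose libraries. In the citric acid cycle 13 of 15 genes were called lower, none higher and 2 were not called (median -2.72). Fumarate hydratase (PDE_03394) had 55.1, 59.5 and 31.7 FPKM in cellulose medium, against 353, 564 and 574 FPKM in glucose medium (log2 fold change -3.59, edgeR adjusted p = 0.000287).

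Glycolysis and the pentose phosphate pathway had 10 of 11 genes called lower (median -2.28). The pyruvate decarboxylase gene *pdcA* (PDE_04873), which leads pyruvate to ethanol, had 87.6, 71.1 and 68.7 FPKM in cellulose medium, against 1395, 2165 and 1889 FPKM in glucose medium (log2 fold change -4.82, edgeR adjusted p = 8.08e-05). Hexokinase (PDE_07688), which phosphorylates glucose as it enters the pathway, was the exception and rose, with 64.9, 72.2 and 109 FPKM in cellulose medium, against 38.5, 27.9 and 30.7 FPKM in glucose medium (log2 fold change 1.13, edgeR adjusted p = 0.00508), but without cellulose replicate 3 its log2 fold change was 0.90, under 2-fold. The 3 genes of gluconeogenesis and the glyoxylate cycle went 3 ways, with phosphoenolpyruvate carboxykinase (PDE_08878) called higher at 2.09, isocitrate lyase (PDE_08297) called lower at -1.31 and fructose-1,6-bisphosphatase (PDE_08481) not called at -0.61. Without cellulose replicate 1 the value of fructose-1,6-bisphosphatase was -2.03 and it was called lower (edgeR adjusted p = 0.0147). The call of isocitrate lyase was lost under 13 of 18 alternatives, which include leaving out any library but glucose replicate 2, and its log2 fold change was -0.55 without glucose replicate 1. The median of the 3 was -0.61 and their mean 0.06.

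Most of the cytosolic ribosome genes listed fell as well. Of these 17 genes, 15 were called lower and 2 were not called (median -2.28), beside 19.7% lower over all genes tested. The list holds only genes with a function in the sources used here. The 2 not called were the genes of ribosomal proteins L5 (PDE_00374, -0.70) and L24 (PDE_03397, -0.99). The lowest was ribosomal protein S9 (PDE_01806), with 102, 125 and 36.5 FPKM in cellulose medium, against 273, 617 and 622 FPKM in glucose medium (log2 fold change -2.77, edgeR adjusted p = 0.00399). The translation factor list had 3 of 5 genes lower, 1 higher and 1 not called (median -1.50), beside 19.7% lower and 21.4% higher over all genes tested. With glmTreat 1 of the 5 was lower. The gene that rose, PDE_09012, annotated as elongation factor 1-α, had 367, 747 and 548 FPKM in cellulose medium, against 179, 74.0 and 105 FPKM in glucose medium (log2 fold change 2.03, edgeR adjusted p = 0.00267). Of 6 chaperone genes 4 were called lower and 2 were not called (median -1.97). Of 7 secretory pathway genes 3 were lower, 1 was higher and 3 were not called (median -0.56). Over all genes tested 19.7% were lower and 21.4% higher, and with so few genes a difference from these shares was not tested. The secretory list ran from a log2 fold change of -3.05 to 3.13. Its lowest member was protein disulfide-isomerase (PDE_08820), which folds secreted proteins, with 41.1, 14.2 and 10.1 FPKM in cellulose medium, against 168, 186 and 124 FPKM in glucose medium (log2 fold change -3.05, edgeR adjusted p = 0.00214).

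In the respiratory chain, citric acid cycle, glycolysis and ribosome lists the pool share of glucose replicate 1 lay between those of the cellulose libraries and those of the other glucose libraries. The ribosome list had 0.358%, 0.391% and 0.184% of the pool in the cellulose libraries, against 0.592%, 1.28% and 1.30% in the glucose libraries. The nitrogen list did not show this, with 0.0582%, 0.0632% and 0.0474% in the cellulose libraries, against 1.37%, 1.32% and 1.42% in the glucose libraries. Without glucose replicate 1 the number of called genes was 3963, and without glucose replicate 2 it was 2948.

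**Figure D5:**
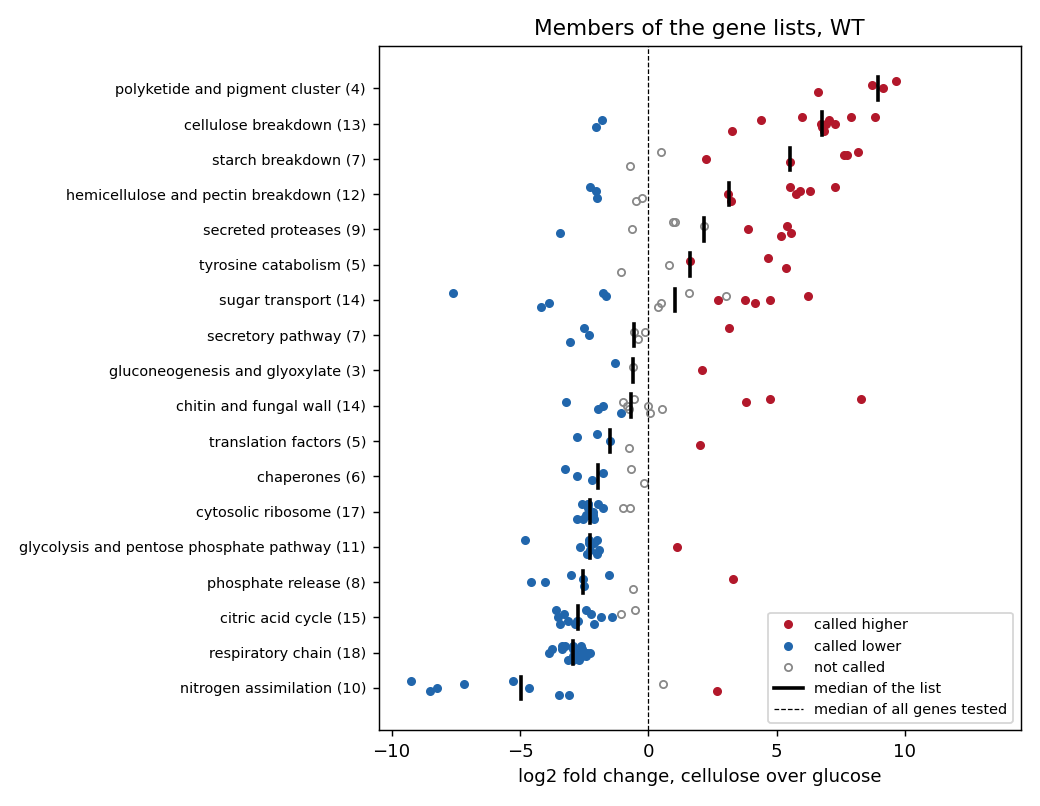
Log2 fold change of each tested member of the 18 gene lists, cellulose over glucose, with called genes filled in red or blue, genes not called as open circles, the median of each list as a bar and the median of all genes tested (-0.02) as a dashed line. The medians of the cellulose, starch and hemicellulose lists lie to the right, with called members on both sides in the cellulose list and the hemicellulose list, and all 18 respiratory chain genes lie between -3.88 and -2.25.

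Several secreted protease genes differed widely between the cellulose replicates. Of 9 genes, 4 were called higher, 1 lower and 4 were not called (median 2.17), beside 21.4% higher and 19.7% lower over all genes tested, and at least 2 of the 4 higher calls were lost when 1 library was left out. Penicillopepsin (PDE_07927), an aspartic protease, had 635, 850.0 and 1946 FPKM in cellulose medium, against 15.4, 25.03 and 27.4 FPKM in glucose medium (log2 fold change 5.39, edgeR adjusted p = 0.000166). The metalloprotease gene penicillolysin (PDE_07936) had 97.7, 41.1 and 5194 FPKM in cellulose medium, against 29.2, 30.7 and 35.5 FPKM in glucose medium (log2 fold change 5.54, edgeR adjusted p = 0.0257), and without cellulose replicate 3 its log2 fold change was 0.94 and the call was lost, as it was without any 1 of the glucose libraries (edgeR adjusted p = 0.067 to 0.0786). Aspergillopepsin-2 (PDE_07933) was the reverse, with 1292, 3461 and 60.8 FPKM in cellulose medium, against 77.9, 89.4 and 108 FPKM in glucose medium (log2 fold change 3.88, edgeR adjusted p = 0.0201), and its call was lost without cellulose replicate 2 or any 1 of the glucose libraries (edgeR adjusted p = 0.0503 to 0.0648). Aspergillopepsin-F (PDE_07344) had 439, 1417 and 6.98 FPKM in cellulose medium, against 154, 256 and 334 FPKM in glucose medium, and missed the test (log2 fold change 1.06, edgeR adjusted p = 0.493), but without cellulose replicate 3 it was called higher (1.64, edgeR adjusted p = 0.0432).

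The phosphate list had 6 of 8 genes called lower, 1 higher and 1 not called (median -2.52), beside 19.7% lower and 21.4% higher over all genes tested. The acid phosphatase gene PDE_09964 had 42.4, 49.4 and 28.6 FPKM in cellulose medium, against 475, 965 and 984 FPKM in glucose medium (log2 fold change -4.58, edgeR adjusted p = 0.000159). The gene annotated as a phosphate-repressible acid phosphatase, PDE_01372, rose, with 142, 125 and 139 FPKM in cellulose medium, against 15.2, 10.2 and 10.8 FPKM in glucose medium (log2 fold change 3.29, edgeR adjusted p = 2.08e-05).

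The polyketide and pigment list, PDE_09236 to PDE_09239, had all 4 genes called higher (median 8.93). These 4 genes lie within the run from PDE_09229 to PDE_09241 that was picked out after its values were seen, so they repeat that observation. The tyrosine catabolism list had 3 of 5 higher and 2 not called (median 1.61), beside 21.4% higher over all genes tested. The polyketide synthase gene PDE_09237 had 31.8, 62.6 and 67.1 FPKM in cellulose medium, against 0.11, 0.08 and 0.13 FPKM in glucose medium (log2 fold change 8.71, edgeR adjusted p = 1.31e-05). In the pigment list cellulose replicate 1 had the smallest share of the pool, 0.0509%, beside 0.127% and 0.194% in the other cellulose libraries.

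The genes switched on in WT were also looked up in the other strain, whose libraries took no part in choosing them. In replicates 1, 2 and 3 of the cellulose group with the Δ*Podot1* label, 65, 10 and 50 of the 83 genes had at least 10 FPKM, against 1, 1 and 1 in the glucose group with that label. Replicates 1 and 2 of that cellulose group held 341 and 613 counts of *Podot1*, against their label. Replicate 2 stood with the glucose libraries on other counts too, with all 6 switched-off genes at 10 FPKM or more, and with 6.17% of its pool in the genes called higher in WT and 51.4% in those called lower.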

How the data were processed

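RNA-seq of the 6 WT libraries was analysed from 1 table per library. The authors deposited, for every listed gene, an estimated count without normalization (0.622% to 0.767% per library were not whole) and FPKM values that they normalized for transcript length and for mapped reads. Transcript length is the third column used. The paper's methods name HISAT and Bowtie2 for mapping. Genome build, tool versions and the count estimator: not given in the sources used here. The sample labels describe a tag protocol and the paper BGISEQ-500 RNA-seq, and the labels give 24 h for the preculture. Paralogs of nearly the same sequence may share reads.

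Counts were rounded and tested with edgeR 4.0.16 in R 4.3.3 (filterByExpr, TMM scaling, quasi-likelihood fit) over the 6 WT libraries alone, with Benjamini-Hochberg adjustment over the 8596 genes tested. A gene was called at an adjusted p under 0.05 and at least 2-fold. Standard errors were derived from the F statistic. FPKM and fold changes follow separate scalings, so a small difference can differ in sign between them. Shares of the pool are FPKM set to a sum of 100% per library (Python 3.11.15, numpy 2.4.6, pandas 2.3.3). Single values per library had two-sided exact permutation tests (scipy 1.17.1), whose smallest p for 3 against 3 is 0.1.

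Other settings tried were limma 3.58.1 on log2 FPKM after adding 0.1, 1 or 10, DESeq2 1.42.0, other scalings and filters, all 12 libraries in 1 fit, glmTreat, the replicate number as a block, each library left out, and other limits for switched genes. The 6 libraries were fitted alone because libraries labelled Δ*Podot1* in cellulose medium stand apart.

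The genes named are the 10 most abundant in each medium, the 10 largest increases and 10 largest decreases among called genes whose libraries do not overlap and whose mean is at least 10 FPKM in the higher medium, the 5 largest gains and 5 largest losses of the pool, *Podot1*, and members of the 18 lists, of which examples are given. The comparison, the lists and the rules were chosen with earlier results of these data known. Functions were taken from the study's text and supplementary annotation. The RefSeq gene table at hand is of another strain and matched 0 locus tags, so no positions, sequences or neighbours beyond the numbering of the tags were used. On simulated data edgeR recovered 93.5% of 200 genes changed 4-fold among 8627 genes, and 6.03% of the genes it called had not been changed. DESeq2 recovered 92.5%, and 11.5% of its calls had not been changed. The simulation gave all genes the same spread and changed few genes, in equal numbers up and down. The data differ in this, so these rates are not those of the calls above.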

Additional observations from a re-analysis of the deposited data

How the results depend on the processing

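The number of called genes, 3532, was 2090 when glmTreat tested against a 2-fold change and 2246 in limma with 10 added to FPKM, and 2948 to 3963 with 1 library left out. The other fits called 2861 (a filter on means under 10 FPKM) to 3746 (DESeq2), and no gene called in both had the opposite direction. Library-size scaling moved the median log2 fold change to 0.19. The number switched on, 83, was 44 with a limit of 0.5 FPKM in the low medium, 54 with 20 FPKM in the high medium and 130 with 5 FPKM, and at least 88 with any 1 library left out. The number switched off, 6, was 0 with a limit of 0.5 FPKM in the low medium, 12 with 5 FPKM in the high medium and 2 with TPM. It was 6 to 11 with 1 library left out, 11 without cellulose replicate 3. The share of the pool moved was 43.6% to 49.8% with 1 library left out. The difference of 3.21 points in the 10 most abundant genes was 2.69 to 3.72 with 1 library left out, and -0.32 over 100 genes.

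Of the 72 called genes named with a test, 11 lost the call under at least 1 alternative, most often PDE_08297 (13), PDE_07936 (9) and PDE_07933 (8). Of the genes not called, PDE_02596, PDE_05655, PDE_07344 and PDE_08481 gained a call under 1 or 2 alternatives, and some changed sign. *Podot1* (PDE_07484) had 0.11 by library size, 0.11, 0.10 and 0.080 in limma with 0.1, 1 and 10 added, and -0.21 to 0.022 with 1 library left out. PDE_02650 had 0.10 by library size, 0.15, 0.15 and 0.15 in limma, 0.011 by upper quartile, and -0.22 to 0.22 with 1 library left out. Aspergillopepsin-F (PDE_07344) had -0.53, -0.48 and -0.16 in limma and -0.29 to 1.64 with 1 library left out. The cause was not tested. The medians of the 18 lists kept their sign in every fit, and some counts of calls shrank, among them tyrosine catabolism to 1 higher with a filter at a mean of 10 FPKM, secreted proteases to 2 higher in limma with 0.1 added, sugar transport to 2 lower in limma with 10 added, and chitin and wall genes and chaperones to 2 lower with glmTreat.

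The deviations of libraries with the same replicate number correlated at 0.0251, 0.182 and -0.0771, and those with different numbers at -0.294 to 0.299. No pairing by number was seen, but with 3 libraries per group this check cannot decide whether there was any. With the replicate number as a block 3406 genes were called, 1814 higher and 1592 lower, and 3303 of them were shared with the fit without it. Depth limits what can be said of switched genes, several of which had 0 to 3 counts in the low medium.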
